A study of Mus musculus with 16 samples.

Results

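Gene expression in the cerebellum was compared with gene expression in the cortex of mice that carried a point mutation in *Slc39a8*. The comparison took every library whose label gives the A391T genotype, 4 of cerebellum and 4 of cortex, which are 8 of the 16 RNA-seq libraries of the series. The other 8 were cerebellum and cortex libraries of 4 wild-type mice. *Slc39a8* encodes ZIP8, a membrane transporter of manganese, zinc and other divalent metals. The labels give the genotype of the mutant mice as *Slc39a8* A391T (A393T) mutant and the strain of all mice as C57BL/6J. Age and sex of the mutant mice, and whether they had 1 or both alleles changed, were not given in the labels. No mouse had a treatment by the labels. Each library held the polyA-selected RNA of snap-frozen cortex or cerebellum, and the labels give the same 4 mouse numbers in both regions, as CTX445, CTX446, CTX461 and CTX462 for cortex and CBLM445, CBLM446, CBLM461 and CBLM462 for cerebellum. Tissue was not sorted, so fewer cells of a type and less RNA per cell cannot be told apart in any value given here.

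The cortex and the cerebellum are built from different neurons. In the cortex most neurons are glutamatergic projection neurons that arise from the dorsal forebrain, and inhibitory interneurons migrate in from the ventral forebrain. The cerebellum develops from the anterior hindbrain. Its neurons are mostly granule cells, very small glutamatergic cells that descend from the rhombic lip, and the output of the cerebellar cortex is carried by the large GABAergic Purkinje cells, which are flanked by inhibitory interneurons and by a specialised astrocyte, the Bergmann glia.

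Counts on genes ran from 24344092 to 29419012 in the cortex libraries and from 23189700 to 27678440 in the cerebellum libraries, and from 2.52% to 3.23% of them fell on the 10 most counted genes. Levels are given as TPM, for which the counts were set against the length of each gene and each library was brought to the same total, and 4 values in a row follow the order CTX445 to CTX462 or CBLM445 to CBLM462. Changes are log2 fold changes of cerebellum over cortex from edgeR's quasi-likelihood test, so that negative values are higher in cortex. A gene was called where its Benjamini-Hochberg adjusted p was under 0.05 and its log2 fold change at least 1 in size, that is, at least 2-fold.

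Several libraries stood apart from the others of their region. CBLM445 differed from the other cerebellum libraries by a chi-square (per degree of freedom) of 62.3 to 74.5, against 7.23 to 8.13 between the other cerebellum libraries and 3.35 to 9.32 between cortex libraries. Of 12121 genes with at least 5 TPM in cerebellum, 531 lay over 2-fold away in this library from the mean of the other 3, against 70, 82 and 93 in the others. Its median log2 difference from the other 3 was 0.05 in the shortest 20% of genes and -0.29 in the longest 20%. In CBLM461, 13 genes lay over 4-fold above the highest of the other 3 libraries, among them *Nrgn*, *Vip*, *Tac1* and *Lhx9*, genes of forebrain, thalamic or midbrain neurons. In CBLM462, 7 genes lay over 4-fold below the lowest of the other 3, among them *Ttr*, *Folr1*, *Aqp1* and *Kl*, genes of the choroid plexus. In CTX461, 6 genes lay over 4-fold below the others, among them *Drd2* and *Adora2a*, receptors of striatal neurons. These limits were chosen after the values were seen, and results that rest on these libraries are given with and without them. The deposited table of RPKM values gives the names of CTX461, CTX462, CBLM461 and CBLM462 to the wild-type libraries CTX447, CTX448, CBLM447 and CBLM448 and the reverse. Libraries are named here by their own count files, and values under the names of the table are given where they change the call of a gene described here.

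Of 16005 genes with enough counts to test, 3949 were called (24.7%). Of these, 1568 were higher in cerebellum (9.8% of the genes tested) and 2381 were higher in cortex (14.9%). The calls in each gene list below are to be read beside these shares. The median log2 fold change over all genes tested was 0.03. In 5643 genes (35.3%) all 4 cerebellum libraries lay above all 4 cortex libraries, and in 4246 genes (26.5%) all 4 cortex libraries lay above all 4 cerebellum libraries. Large differences were more often in favour of cortex: 1097 genes were at least 4-fold higher there and 592 in cerebellum, and 193 against 101 genes differed by a log2 of at least 5. The called genes that were higher in cerebellum held from 11.3% to 12.3% of all counts in the cerebellum libraries and from 2.80% to 2.89% in the cortex libraries. Those higher in cortex held at most 20.2% of the counts in cortex and from 5.37% to 6.34% in cerebellum. Without CBLM445, 4065 genes were called, and 3717 of the 3949 (94.1%) were among them. With mouse as a replicate block, the paired form of the fit, 3932 genes were called, 1542 higher in cerebellum and 2390 higher in cortex, with 3899 shared (98.7%). With the libraries named as in the RPKM table, 4073 were called and 3716 were shared (94.1%). When library totals replaced TMM factors, the median log2 of all genes moved from 0.03 to 0.16, and 1903 genes were called higher in cerebellum and 2124 higher in cortex.

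A small set of genes was close to exclusive to a region. With at least 5 TPM in one region and at most 3 counts over the 4 libraries of the other, there were 14 genes in cerebellum and 14 in cortex. Besides homeodomain factors, those of cerebellum included the long noncoding RNA *1500016L03Rik*, with 1710, 974, 822 and 793 counts in the cerebellum libraries and 3 over the cortex libraries, a ratio of 1377 (95% interval from 471 to 6677). Those of cortex included *Ovol2*, a zinc finger factor, with 1263 counts against 1, a ratio of 1315 (95% interval from 236 to 51974), where the intervals of ratios cover counting error only. They also included *Trbc2*, a T cell receptor constant segment, with 223, 203, 198 and 197 counts in the cortex libraries and 3 over the cerebellum libraries, a ratio of 285 (95% interval from 97.1 to 1384). *Prss22*, a serine protease, had 323 counts over the cortex libraries and 0 over the cerebellum libraries, at least 112-fold higher with 3 counts over the 4 libraries as the floor. Among genes with a few counts in the lower region, *Cnpy1*, a regulator of Fgf signalling at the isthmus, had 0.0999, 0.215, 0.175 and 0.142 TPM in cortex and 247, 304, 256 and 285 TPM in cerebellum. *Dao*, the D-amino acid oxidase of hindbrain astrocytes, had 0.186, 0.118, 0.124 and 0.201 TPM in cortex and 247, 156, 141 and 156 TPM in cerebellum, and the adhesion receptor *Crtam* had 0.0820, 0.0783, 0.246 and 0.266 and 133, 216, 177 and 204 TPM. For these 3 genes every cerebellum library lay far above every cortex library, with log2 fold changes of 10.63 (standard error 0.14), 9.95 (standard error 0.36) and 9.86 (standard error 0.25).

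**Figure D1:**
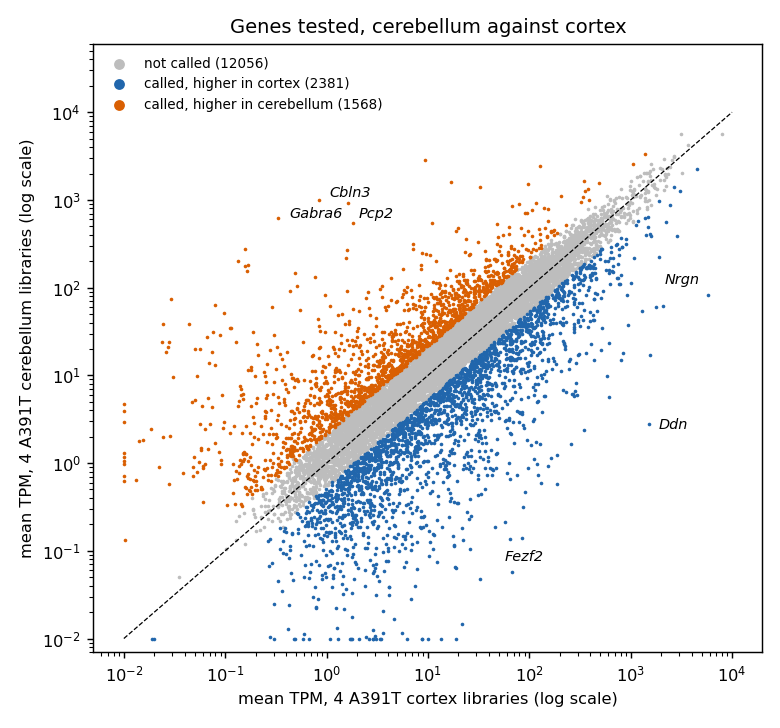
Mean TPM of each of the 16005 genes tested in the 4 A391T cortex libraries (horizontal axis) and the 4 A391T cerebellum libraries (vertical axis), both on log scales, with means under 0.01 TPM drawn at 0.01. Orange points are the 1568 genes called higher in cerebellum, blue points the 2381 called higher in cortex and grey points the rest. *Gabra6* and *Fezf2* lie near opposite edges, and the uncalled genes follow the diagonal.

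The difference in *Slc39a8* itself between the regions was smaller than the spread between mice. Its level was 2.68, 2.79, 1.98 and 2.38 TPM in the cortex libraries and 2.79, 2.70, 2.46 and 2.39 TPM in the cerebellum libraries, and the ranges of the 2 regions overlap. The log2 fold change was -0.02 (standard error 0.14) with an adjusted p of 0.889 by edgeR's quasi-likelihood test. A point mutation need not change the RNA level, so this value does not check the genotype label. The gene lies at chr3:135488243-135551536 on NCBIM37 (mm9), the build of all gene coordinates given here.

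Genes of granule cells were mostly higher in cerebellum. Of 28 granule cell genes tested, 24 were called higher in cerebellum, 1 higher in cortex and 3 neither, against 24.7% called in both directions over all genes, with a median log2 fold change of 3.84 over the list and 0.03 over all genes. The counts of this list were the same with each of the 8 libraries left out in turn and with the replicate block. *Gabra6*, a GABA-A receptor subunit that is found almost only in granule cells, had 0.428, 0.409, 0.257 and 0.243 TPM in cortex and 520.5, 659, 617 and 676 TPM in cerebellum. Its log2 fold change was 10.74 (standard error 0.14) with an adjusted p of 4.77e-11 by edgeR's quasi-likelihood test, and the gene lies at chr11:42119939-42134574 on the minus strand. *Cbln3*, a secreted synaptic organiser of granule cells, had 0.723, 0.946, 0.911 and 0.782 TPM in cortex and 772, 1123, 983 and 1076 TPM in cerebellum, a log2 fold change of 10.09 (standard error 0.15). *Fat2*, a protocadherin of the granule cell's parallel fibres, had 0.149, 0.169, 0.186 and 0.159 TPM in cortex and 117, 169, 152 and 181 TPM in cerebellum, a log2 fold change of 9.75 (standard error 0.16). These 3 genes were under 1 TPM in every cortex library.

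Other granule cell genes had a measurable cortical level. *Cbln1*, a secreted organiser of parallel fibre synapses, rose from 1.58 to 267 TPM, a log2 fold change of 7.28 (standard error 0.15), but 67.5% of its exonic bases are shared with another gene and counting ignored strand. *Calb2*, the calcium buffer calretinin, had 32.3 ± 3.22 TPM in cortex, where interneurons express it, and 1409 ± 132 TPM in cerebellum (SD, n = 4), a log2 fold change of 5.35. The transmitter receptor genes of the list were also higher in cerebellum: the presynaptic glutamate receptor *Grm4* by 3.82 on the log2 scale, the NMDA receptor subunit *Grin2c* by 2.86 and the extrasynaptic GABA-A receptor subunit *Gabrd* by 1.20. *Reln*, the secreted protein reelin, which cortical interneurons also make, was 1.96 higher. *Uncx*, a homeodomain factor, had 7476 counts over the 4 cerebellum libraries and 3 over the 4 cortex libraries, a ratio of 2394 (95% interval from 819 to 11610.2). The exception was *Slc17a7*, the vesicular glutamate transporter that granule cells share with cortical projection neurons. It had 2361, 2479, 2456 and 2401 TPM in cortex and 732, 951, 798 and 981 TPM in cerebellum, a log2 fold change of -1.59 (standard error 0.08), and all cortex libraries lay above all cerebellum libraries.

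Purkinje cell genes followed the same direction. Of 34 tested, 28 were called higher in cerebellum and 3 higher in cortex, with a median log2 fold change of 2.86. *Pcp2*, a regulator of G protein signalling that is nearly restricted to Purkinje cells in the brain, had 2.53, 0.908, 1.11 and 1.93 TPM in cortex and 1063, 896, 808 and 879.9 TPM in cerebellum. Its log2 fold change was 9.02 (standard error 0.23), but 46.9% of its exonic bases are shared with another gene. *Car8*, a protein related to carbonic anhydrases that binds the inositol trisphosphate receptor, had 16.2, 17.1, 18.8 and 15.9 TPM in cortex and 1602, 1642, 1538 and 1674 TPM in cerebellum, a log2 fold change of 6.47 (standard error 0.09). *Calb1*, the calcium buffer calbindin, is also made by cortical neurons and had 107, 101, 106 and 116 TPM in cortex and 699.8, 837, 749 and 814 TPM in cerebellum, a log2 fold change of 2.75 (standard error 0.07). No cortex library reached the level of any cerebellum library for these 3 genes.

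The signalling proteins of the Purkinje cell synapse ranged widely. *Ppp1r17*, a phosphatase inhibitor, was 8.14 higher on the log2 scale, the scaffold *Homer3* 5.35, the glutamate transporter *Slc1a6* 4.42 and the G protein regulator *Rgs8* 3.57. *Itpr1*, the inositol trisphosphate receptor itself, was 1.71 higher from a level of 376 TPM in cortex, and *Aldoc*, the aldolase that marks Purkinje cell stripes and is also an astrocyte enzyme, went from 1059.8 ± 66.4 to 2582 ± 589 TPM (SD, n = 4), a log2 fold change of 1.17. The transcription factors *Lhx5* and *Skor2* were close to absent from cortex, with 2 and 2 counts over 4 libraries against 3031 and 2072 in cerebellum. The ratio was 1456 (95% interval from 403 to 12026) for *Lhx5* and 995 (95% interval from 275 to 8223) for *Skor2*. The 3 members in the other direction were *Itpka*, an inositol phosphate kinase of dendritic spines, at -1.35, the cyclin-dependent kinase activator *Cdk5r2* at -2.15 and the calcium-binding protein *Necab2* at -3.72.

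Promoter sequences are shown for 2 granule cell and 2 Purkinje cell genes because these groups moved together across a large range. Each is the RefSeq window of GRCm38.p6 from 250 bases before to 50 bases after a start site, 5′ to 3′ on the gene's strand, which is another build than the mm9 gene coordinates. Capitals mark AGGTCA or its reverse complement TGACCT, the core letters recognised by ROR nuclear receptors and by several other nuclear receptors. Both strands were searched. Where a gene had several windows, the one with the most matches is shown.
*Gabra6*, chr11:42321023-42321322, minus strand: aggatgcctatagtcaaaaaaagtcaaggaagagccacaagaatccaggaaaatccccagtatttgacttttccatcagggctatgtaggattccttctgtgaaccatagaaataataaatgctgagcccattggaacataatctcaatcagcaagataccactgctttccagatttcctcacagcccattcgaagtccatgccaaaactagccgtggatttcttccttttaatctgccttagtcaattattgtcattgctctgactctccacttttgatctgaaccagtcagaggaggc
*Fat2*, chr11:55312208-55312507, minus strand: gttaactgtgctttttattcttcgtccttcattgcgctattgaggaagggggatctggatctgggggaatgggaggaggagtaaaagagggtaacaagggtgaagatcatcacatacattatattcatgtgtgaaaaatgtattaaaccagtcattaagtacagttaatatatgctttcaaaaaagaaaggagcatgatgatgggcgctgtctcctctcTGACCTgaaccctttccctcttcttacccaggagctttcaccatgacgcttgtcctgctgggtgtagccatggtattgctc
*Pcp2*, chr8:3624987-3625286, minus strand: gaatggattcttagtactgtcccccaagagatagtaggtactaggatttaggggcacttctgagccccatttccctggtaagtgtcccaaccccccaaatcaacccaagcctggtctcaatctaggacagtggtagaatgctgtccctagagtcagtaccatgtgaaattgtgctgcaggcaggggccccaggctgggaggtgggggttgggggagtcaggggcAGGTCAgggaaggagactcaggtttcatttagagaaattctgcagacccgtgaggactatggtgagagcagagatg
*Rgs8*, chr1:153665423-153665722, plus strand: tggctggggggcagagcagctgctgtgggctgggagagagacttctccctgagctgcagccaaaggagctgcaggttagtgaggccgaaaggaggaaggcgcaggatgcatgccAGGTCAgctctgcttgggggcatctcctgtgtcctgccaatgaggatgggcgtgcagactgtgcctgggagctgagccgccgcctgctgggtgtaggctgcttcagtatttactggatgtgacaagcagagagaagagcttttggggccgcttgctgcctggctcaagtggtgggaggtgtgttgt

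The letters occurred at -31 from the start in *Fat2*, at -26 in *Pcp2* and at -136 in *Rgs8*, and not in the window of *Gabra6*. They were present in at least 1 window of 4900 of 27025 genes (18.1%), of 5 of the 20 granule cell genes found in the table (25.0%) and of 8 of the 23 Purkinje cell genes found (34.8%). A second motif, CAGATG, an E-box form bound by proneural factors, was present in 5196 of 27025 genes (19.2%), in 3 of 20 granule cell genes (15.0%) and in 3 of 23 Purkinje cell genes (13.0%). Genes with several start sites have more windows, as do *Pcp2* with 4 and *Rgs8* with 3. The windows of these genes were picked by their matches, so the letters in them are no independent observation. A match describes letters and not a bound site.

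Among genes of cerebellar inhibitory interneurons and unipolar brush cells, 11 of 20 were called higher in cerebellum and 4 higher in cortex, with a median of 1.84. With library totals the counts were 12 and 2. *Slc6a5*, the glycine transporter of Golgi cells and other glycinergic neurons, went from 0.0665 ± 0.0375 to 27.4 ± 5.62 TPM (SD, n = 4), a log2 fold change of 8.53 (standard error 0.25). The interneuron factor *Pax2* was 5.53 higher on the log2 scale and *Tfap2b*, which is needed for cerebellar GABAergic fate, 5.35. *Eomes*, a factor of unipolar brush cells, had 0.133, 0.128, 0.0334 and 0.162 TPM in cortex and 25.4, 40.2, 32.2 and 40.2 TPM in cerebellum, and a log2 fold change of 8.05 (standard error 0.25). The enzymes and the vesicular transporter that all GABAergic neurons share were not called: *Gad1* had a log2 fold change of 0.88 (1.01 and called with library totals), *Gad2* of -0.04 and *Slc32a1* of 0.86.

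Bergmann glia and cerebellar astrocyte genes gave 14 calls in cerebellum and 2 in cortex out of 23, with a median of 1.44. *Gdf10*, a secreted factor of Bergmann glia, had 5.32, 5.22, 6.24 and 6.03 TPM in cortex and 132, 188, 149 and 177 TPM in cerebellum, a log2 fold change of 4.71 (standard error 0.12). The protease inhibitors *A2m* (5.74 on the log2 scale) and *Timp4* (2.85), the Hedgehog effector *Gli1* (2.68), the calcium-binding protein *S100b* (2.16) and the water channel *Aqp4* (1.83) were higher in cerebellum too. *Slc1a3*, the glutamate transporter of Bergmann glia, differed by 1.09 and was not called in the test against a 2-fold change. The 2 members higher in cortex were *Npy*, a neuropeptide of cortical interneurons, at -2.64, and the ETS factor *Etv5* at -1.02. *Etv5* lay at the 2-fold limit and was not called without CTX461 (-0.98), CBLM445 (-0.96) or CBLM446, nor with library totals (-0.89). Genes of cortical astrocytes were split, with 5 of 22 higher in cerebellum, 8 higher in cortex and a median of 0.13. *Slc1a2*, the main astrocytic glutamate transporter of the forebrain, had 649, 649, 738 and 578 TPM in cortex and 109, 156, 189 and 172 TPM in cerebellum, a log2 fold change of -2.17 (standard error 0.13) with no overlap. The phagocytosis genes *Mfge8* (-1.49) and *Mertk* (-1.36) were also higher in cortex, while the angiotensin precursor *Agt* (3.95), the retinaldehyde dehydrogenase *Aldh1a1* (2.75) and the matrix protein *Sparc* (2.36) were higher in cerebellum.

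Transcription factors that give cells their position along the brain axis had a median log2 fold change of 3.98. Of 37 tested, 24 were higher in cerebellum and 11 higher in cortex, and 2 were not called. *Lhx1*, a homeodomain factor of Purkinje and other hindbrain cells, had 0.0621, 0.0889, 0.0931 and 0.0755 TPM in cortex and 49.2, 71.0, 64.6 and 71.7 TPM in cerebellum, a log2 fold change of 9.48 (standard error 0.17). *Tlx3*, a homeodomain factor of hindbrain glutamatergic neurons, had 2 counts over the cortex libraries and 1596 over the cerebellum libraries, a ratio of 767 (95% interval from 212 to 6335). *Wnt1*, the signal of the isthmus between midbrain and hindbrain, is a secreted ligand and not a transcription factor. It had 137 counts over the cortex libraries and 0 over the cerebellum libraries. It was at least 47.5-fold higher in cortex with 3 counts over the 4 libraries as the floor. The forebrain interneuron factors *Dlx2*, *Dlx5* and *Sp8* are in the list of cortical interneurons. They had 819, 531 and 336 counts over the cortex libraries and 0 over the cerebellum libraries. They were at least 284-fold, 184-fold and 117-fold higher in cortex by the same floor. The values of *Homer3*, *Slc32a1* and *Doc2a* are uncertain like those of *Cbln1* and *Pcp2*, since 25.4%, 24.8% and 33.9% of their exonic bases are shared with another gene.

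**Figure D2:**
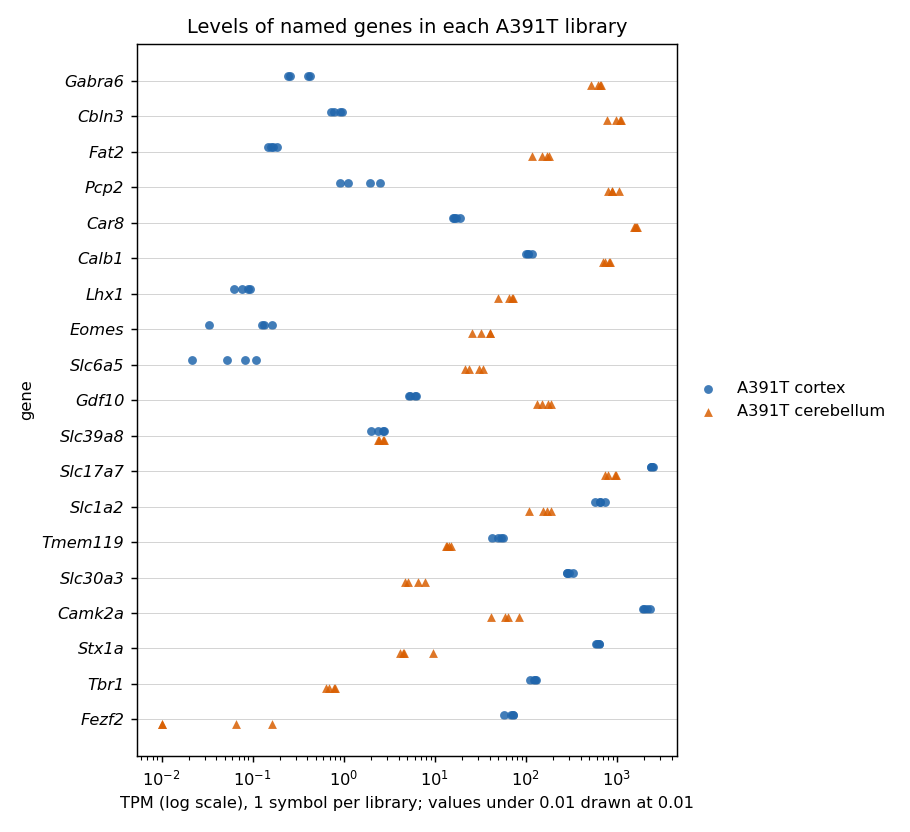
TPM of 19 named genes in each A391T library, on a log scale, with 1 row per gene, blue circles for the 4 cortex libraries and orange triangles for the 4 cerebellum libraries; values under 0.01 TPM are drawn at 0.01. In the rows from *Gabra6* to *Gdf10* the orange symbols lie to the right of the blue ones, and in those from *Slc17a7* to *Fezf2* to the left, without overlap. For *Slc39a8* they overlap.

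Transcription factors of cortical projection neurons were higher in cortex in 28 of 38 cases, with 1 higher in cerebellum and a median log2 fold change of -1.51. *Fezf2*, which directs subcortical projection neurons, had 68.0, 73.0, 72.2 and 57.2 TPM in cortex and 0.163, 0.0651, 0 and 0 TPM in cerebellum, so that 2 of the cerebellum libraries held no count. *Tbr1*, a factor of corticothalamic neurons, had 126, 128, 124 and 112 TPM in cortex and 0.683, 0.792, 0.634 and 0.798 TPM in cerebellum, a log2 fold change of -7.49 (standard error 0.10). *Emx1*, a dorsal forebrain factor, differed by -7.97 and *Lhx2*, a patterning factor, by -6.79, and -8.28 without CBLM461. The member called in the other direction was *Zfpm2*, a cofactor of GATA proteins, at 1.69.

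The effector genes of cortical excitatory neurons showed a larger typical difference: 33 of 42 were higher in cortex and 3 higher in cerebellum, with a median of -3.29. *Camk2a*, the calmodulin-dependent kinase of forebrain synapses, had 2000.1, 2168, 2327 and 1933 TPM in cortex and 41.1, 59.3, 84.9 and 63.9 TPM in cerebellum, a log2 fold change of -5.19 (standard error 0.19). *Nrgn*, the calmodulin-binding protein neurogranin, was among the most abundant RNAs of the cortex with 5936, 5862, 5649 and 5610.3 TPM, and it had 19.8, 18.6, 273 and 19.4 TPM in cerebellum. CBLM461 was thus far above the other 3 cerebellum libraries. The log2 fold change of *Nrgn* was -6.26 (standard error 0.97) with all libraries and -8.31 without that library. *Ddn*, the postsynaptic protein dendrin, went from 1523 ± 119.9 to 2.80 ± 1.27 TPM (SD, n = 4), a log2 fold change of -9.21 (standard error 0.26). *Crym*, a thyroid hormone binding protein, differed by -8.44 on the log2 scale, *Kcnv1*, a silent potassium channel subunit, by -8.22, and *Chrm1*, the main muscarinic receptor of the cortex, by -7.92. *Slc17a6*, the vesicular glutamate transporter of subcortical neurons, was called higher in cerebellum with 12.2, 11.8, 7.93 and 10.4 TPM in cortex and 19.0, 14.5, 70.7 and 22.5 TPM in cerebellum. Its log2 fold change was 1.46 with all libraries and 0.73 without CBLM461, below the 2-fold limit. The call of *Slc17a6* also ended with the replicate block (1.16, adjusted p of 0.0572 by edgeR's quasi-likelihood test) and under the names of the RPKM table (0.52). *Kcnv1* was -9.11 without CBLM461 and *Crym* -9.09 without CBLM462.

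Genes of cortical inhibitory interneurons were mostly higher in cortex, 27 of 42, with 7 higher in cerebellum and a median of -2.66. *Vip*, the peptide of a disinhibitory interneuron class, had 100.3, 102, 117 and 95.3 TPM in cortex and 0.164, 0.0985, 5.82 and 0.426 TPM in cerebellum, and a log2 fold change of -6.16 and of -8.88 without CBLM461. The serotonin receptor channel subunit *Htr3a* differed by -6.07 and the tachykinin precursor *Tac2* by -5.85. The members on the other side are also genes of cerebellar neurons. *Pvalb*, the calcium buffer parvalbumin of fast-spiking cortical interneurons and of Purkinje, basket and stellate cells, had 140.1, 135, 121 and 110.4 TPM in cortex and 4418, 1871, 1769.9 and 1784 TPM in cerebellum. The log2 fold change of *Pvalb* was 4.21 (standard error 0.36) and 3.70 without CBLM445, its highest library. *Nos1*, the neuronal nitric oxide synthase that granule cells also express, differed by 1.69, the homeodomain factor *Prox1* by 1.68, the leucine zipper factor *Maf* by 1.17 and the cannabinoid receptor *Cnr1* by 1.01. *Cnr1* fell just under the 2-fold limit without CTX446 (0.97), CTX461 (0.99) or CBLM462 (0.97), and *Htr3a* was -6.86 without CBLM461.

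**Figure D3:**
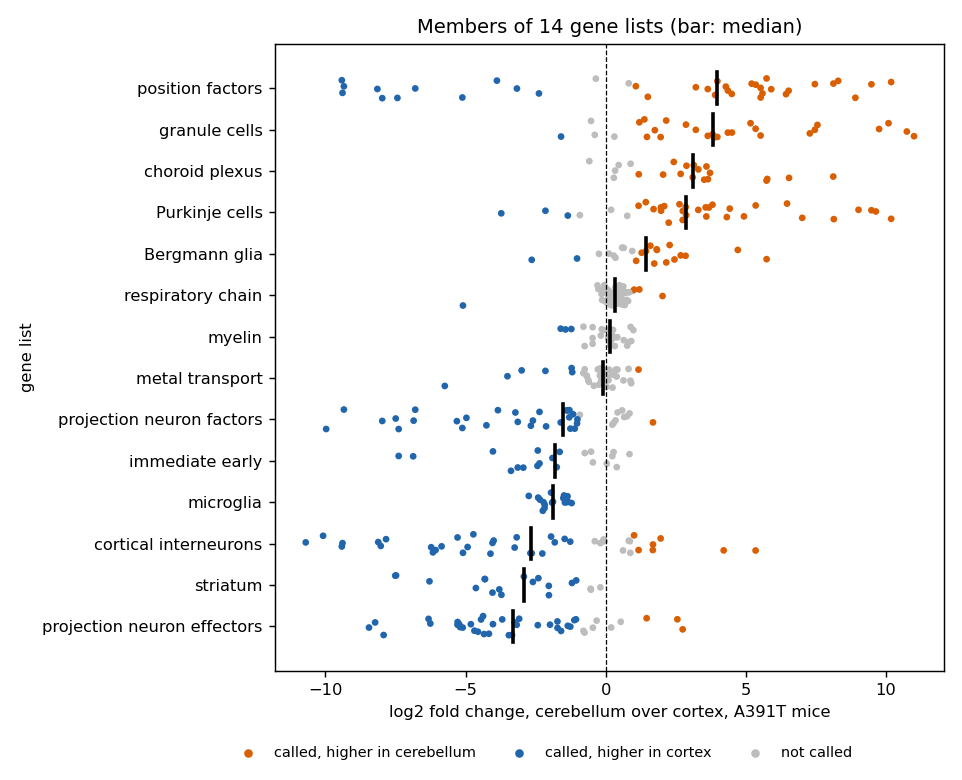
Log2 fold changes of cerebellum over cortex for the tested members of 14 gene lists, 1 point per gene, coloured orange where called higher in cerebellum, blue where called higher in cortex and grey where not called. Black bars are list medians, from 3.98 for position factors to -3.29 for effector genes of cortical projection neurons, and the dashed line is the median of all genes at 0.03.

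Glutamate receptor genes were called in both directions. Of 36 AMPA, kainate, NMDA and delta receptor subunits and their auxiliary proteins, 8 were higher in cerebellum, 15 higher in cortex and 13 not called, with a median of -0.61. Among NMDA receptor subunits, *Grin2b* had 13.8, 16.1, 14.6 and 12.1 TPM in cortex and 0.405, 0.543, 0.708 and 0.758 TPM in cerebellum, a log2 fold change of -4.67 (standard error 0.16). *Grin2c* was on the other side, with 44.3, 50.9, 51.1 and 50.3 TPM in cortex and 408, 398, 337 and 387 TPM in cerebellum, and neither subunit had overlapping libraries. The kainate receptor partner *Neto1* (-5.11) and the AMPA receptor partner *Cacng3* (-4.24) were higher in cortex, and the AMPA receptor subunit *Gria4* (1.99) and the AMPA receptor partner *Shisa6* (3.72) higher in cerebellum. All 7 metabotropic glutamate receptors tested were called, 2 in cerebellum and 5 in cortex. *Grm5*, a receptor that couples to phospholipase C, had 148, 143, 139 and 148 TPM in cortex and 4.21, 5.98, 17.1 and 7.23 TPM in cerebellum, a log2 fold change of -4.19 (standard error 0.36), and the libraries of the regions did not overlap.

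GABA-A receptor subunits gave 2 calls in cerebellum, *Gabra6* and *Gabrd*, and 5 in cortex out of 15, or 46.7% against 24.7% over all genes. The cortical calls included *Gabra5* (-4.88), a subunit of tonic inhibition in forebrain, *Gabrg3* (-4.34), *Gabra3* (-3.41) and *Gabra4* (-2.08). Of 7 glycine receptor and transporter genes, 3 were higher in cerebellum and 2 higher in cortex. Among 13 glutamate transporter genes, 4 were higher in cerebellum and 5 in cortex, the latter including the vesicular transporter *Slc17a8* at -5.71. Without CBLM461 *Slc17a8* was -6.41 and *Gabra5* -5.75.

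Of 44 voltage-gated potassium channel subunits, 23 were higher in cortex and 6 in cerebellum, with a median of -1.61, where 14.9% of all genes were called higher in cortex and 9.8% in cerebellum. The cerebellar calls included *Kcnc1* (1.74), a fast channel of the Shaw family, and the silent subunit *Kcng4* (4.58). On the cortical side were *Kcnf1* (-6.73), another silent subunit, and *Kcnq5* (-6.28), a subunit of the M current. In the other potassium channel families 11 of 32 were higher in cortex and 7 in cerebellum. The inward rectifiers *Kcnj4* and *Kcnj12* took opposite directions, with log2 fold changes of -7.28 and 2.54. Calcium and sodium channel genes gave 3 calls in cerebellum and 8 in cortex out of 30, or 36.7% against 24.7% over all genes. The share in cerebellum was near the 9.8% of all genes. The cerebellar calls were *Cacna1a*, the P/Q-type channel of Purkinje cells (1.22), *Cacna1g*, a T-type channel (1.71), and the auxiliary subunit *Cacna2d2* (2.10). The T-type channel *Cacna1h* (-3.48) and the sodium channel subunit *Scn3b* (-4.70) were higher in cortex. In tests against a 2-fold change *Cacna1a* was not called, with an adjusted p of 0.0518 by edgeR's glmTreat. It was 1 of 56 named genes whose call ended in that test, among them *Aldoc*, *Slc1a3*, *Cspg4*, *Ntf3* and *Cpe*.

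Signalling genes that act downstream of receptors were called in both directions. Of 59 genes of cyclic nucleotide and G protein signalling, 13 were higher in cerebellum and 29 in cortex. The phosphodiesterases *Pde5a* (2.71) and *Pde9a* (2.23) and the cyclic GMP-dependent kinase *Prkg1* (1.40) were higher in cerebellum. The calmodulin-dependent phosphodiesterase *Pde1a* (-6.17) and the G protein regulators *Rgs14* (-7.67) and *Rgs4* (-4.45) were higher in cortex. Of 48 genes of calcium stores, pumps and buffers, 13 were higher in cerebellum and 15 in cortex. *Atp2a3*, a calcium pump of the endoplasmic reticulum of Purkinje cells, had 8.21, 9.30, 8.58 and 9.03 TPM in cortex and 244, 259, 223 and 267 TPM in cerebellum, a log2 fold change of 4.72 (standard error 0.09). The related calcium sensors *Hpcal1* and *Hpcal4* had opposite signs, with log2 fold changes of 3.42 and -4.72. *Hpcal4* had 893, 872, 1009 and 958 TPM in cortex and 37.9, 36.7, 42.1 and 35.2 TPM in cerebellum.

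Receptors for monoamines, acetylcholine, cannabinoids, adenosine and opioids were higher in cortex in 33 of 48 cases and higher in cerebellum in 4, with a median of -1.99. The calls in cerebellum were 7 with library totals, and 6 without CBLM461, without CTX462 or under the names of the RPKM table. *Chrna5*, a nicotinic receptor subunit of deep-layer cortical neurons, differed by -6.35. The dopamine receptors *Drd1a* (-6.29) and *Drd2* (-3.72) were higher in cortex, and both are also genes of the striatum, which lies under the cortex. *Drd2* had 68.2, 42.5, 8.50 and 69.3 TPM in the cortex libraries, so CTX461 stood below the other 3, and 1.13, 1.77, 10.3 and 2.74 TPM in the cerebellum libraries. CBLM461 was thus above CTX461, and the regions overlapped for this gene. Neuropeptide genes gave 19 calls in cortex and 4 in cerebellum out of 33. The opioid precursor *Pdyn* (-5.89) was higher in cortex, and galanin, *Gal* (2.86), and the neurotrophin *Ntf3* (1.31) were higher in cerebellum. Without CBLM461 the values were -4.77 for *Drd2* and -7.18 for *Pdyn*. *Gal* had too few counts to test under the names of the RPKM table.

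Synaptic vesicle and release genes were called in both directions. Of 48 tested, 28 were not called, 12 were higher in cortex and 8 in cerebellum. *Stx1a*, the plasma membrane syntaxin of exocytosis, had 600.0, 638, 640.4 and 584 TPM in cortex and 4.15, 4.54, 9.58 and 4.61 TPM in cerebellum, a log2 fold change of -6.86 (standard error 0.24) with no overlap. The calcium sensors *Doc2a* (-5.38) and *Syt5* (-4.98) were higher in cortex, while *Doc2b* (2.35), *Syt2* (3.30), the priming factor *Unc13c* (2.29) and the synaptobrevin *Vamp1* (1.25) were higher in cerebellum. The family members *Doc2a* and *Doc2b* thus had opposite signs. *Doc2a* was -6.64 without CBLM461, and *Vamp1* was 0.99 and not called under the names of the RPKM table.

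Adhesion and guidance genes showed region-specific members in both directions. Among 19 cadherins, 4 were higher in cerebellum and 7 in cortex. *Cdh15*, a cadherin of granule cells and muscle, had 3.31, 3.75, 1.99 and 4.29 TPM in cortex and 101, 106, 85.0 and 98.8 TPM in cerebellum, and *Cdh9* had 26.2, 22.4, 21.6 and 29.5 TPM in cortex and 0.233, 0.746, 2.41 and 0.606 TPM in cerebellum. The log2 fold changes were 4.76 (standard error 0.20) and -4.79 (standard error 0.42). Of 68 axon guidance ligands and receptors, 12 were higher in cerebellum and 28 in cortex. The ligand netrin, *Ntn1* (2.84), its receptor *Unc5b* (2.09) and the ephrin receptor *Epha8* (3.07) were higher in cerebellum, and the ligand *Slit1* (-5.03) and the receptors *Robo3* (-5.75) and *Ephb6* (-3.35) were higher in cortex. Genes of the Hedgehog, Wnt, Fgf, Bmp and retinoic acid pathways divided almost evenly, 25 in cerebellum and 24 in cortex of 81, with a median of 0.15 that turned to -0.13 without CBLM445, -0.04 without CBLM462 and -0.05 under the names of the RPKM table. Of the secreted ligands, *Fgf7* (4.40) and *Wnt3* (3.47) were higher in cerebellum and *Bmp3* (-6.98), *Wnt10a* (-5.15) and *Wnt9a* (-4.41) in cortex. Without CBLM461 the values were -5.68 for *Cdh9*, -5.77 for *Slit1* and -7.80 for *Bmp3*.

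Zinc, manganese and iron transport genes, to which *Slc39a8* belongs, were called in 16.7% of cases, against 24.7% over all genes. Of 42 tested, 35 were not called, 6 were higher in cortex and 1 in cerebellum, with a median of -0.09 (0.05 with library totals). The calls in cerebellum were 2 without CBLM445, without CBLM462 or with library totals, and 3 under the names of the RPKM table. *Slc30a3*, the transporter that loads zinc into synaptic vesicles, had 282, 282, 328 and 301 TPM in cortex and 4.73, 5.03, 6.53 and 7.86 TPM in cerebellum, a log2 fold change of -5.74 (standard error 0.14). *Slc39a10*, a zinc importer of the family of *Slc39a8*, had 159.8, 166, 174 and 151 TPM in cortex and 19.1, 45.5, 46.0 and 48.7 TPM in cerebellum. Its log2 fold change was -2.15 (standard error 0.22), and -1.93 without CBLM445, its lowest library. *Slc30a2* (-3.50) and the secretory pathway pump *Atp2c2* (-2.998) were also higher in cortex. *Slc39a13*, a zinc transporter of the early secretory pathway, had a log2 fold change of 1.17 and was the member called higher in cerebellum, and the metallothionein *Mt2* had 0.82 and was not called, but was called at 1.01 under the names of the RPKM table.

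Genes of glycan synthesis, many for enzymes that need manganese in the Golgi, gave 16 calls in cerebellum and 26 in cortex out of 118. The share called was 35.6%, against 24.7% over all genes, and 76 were not called. The median was -0.08 (0.05 with library totals). Perineuronal and extracellular matrix genes gave 10 and 15 calls of 52, or 48.1% against 24.7% over all genes. With library totals they gave 14 and 11. *Ncan*, the proteoglycan neurocan, had 167, 178, 185 and 174 TPM in cortex and 14.0, 12.9, 18.4 and 13.4 TPM in cerebellum, a log2 fold change of -3.69 (standard error 0.12). The link protein *Hapln1* (-2.21) and the thrombospondin *Thbs4* (-5.28) were also higher in cortex, and the collagen *Col18a1* (4.38) and tenascin C, *Tnc* (2.82), were higher in cerebellum.

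All 18 microglial genes tested were called higher in cortex, with a median log2 fold change of -1.89, and this count was the same without each library in turn. Their summed level was 1305, 1338, 1524 and 1496 TPM in the cortex libraries and 488, 460.5, 564 and 516 TPM in the cerebellum libraries. *Tmem119*, a microglial membrane protein, had 43.1, 49.3, 56.8 and 53.9 TPM in cortex and 13.3, 13.8, 15.1 and 14.4 TPM in cerebellum, a log2 fold change of -1.95 (standard error 0.10). *Cx3cr1*, the fractalkine receptor, had 59.8, 62.9, 70.3 and 64.0 TPM in cortex and 10.6, 14.3, 17.1 and 17.6 TPM in cerebellum, a log2 fold change of -2.22 (standard error 0.13). The range over the list ran from -2.74 for the scavenger receptor *Fcrls* to -1.21 for the secreted protein *Olfml3*, and no library of one region reached the other for *Tmem119* or *Cx3cr1*.

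Oligodendrocyte and myelin genes, in contrast, had 0 calls in cerebellum and 3 in cortex of 29, or 10.3% against 24.7% over all genes. Their median was 0.15. The 3 called genes, *Pdgfra* (-1.43), *Gpr17* (-1.60) and *Cspg4* (-1.22), are expressed in oligodendrocyte precursors rather than in myelinating cells. With library totals, 3 members were called higher in cerebellum and 3 in cortex. The calls in cerebellum were 2 without CBLM462 and under the names of the RPKM table, and 1 without CBLM445, CBLM446 or CTX461. Endothelial and pericyte genes had 1 call of 26, or 3.8% against 24.7% over all genes. It was the phospholipid transfer protein *Pltp* at 1.04, which was not called without CBLM445 (0.91) or without CTX445 (1.00).

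Genes of tissues that lie next to each region varied from mouse to mouse. Choroid plexus genes, from the secretory epithelium of the ventricles, were higher in cerebellum in 16 of 21 cases and in cortex in 0. Their summed level was 453, 466, 537 and 444 TPM in the cortex libraries and 3371, 7088, 4224 and 385 TPM in the cerebellum libraries. CBLM462 thus lay below all cortex libraries, and the other 3 lay above them. *Ttr*, the thyroid hormone carrier transthyretin and the defining gene of the list, had 7.05, 8.30, 11.8 and 10.4 TPM in cortex and 2316, 5709.8, 3221 and 28.7 TPM in cerebellum, and a log2 fold change of 8.12 (standard error 1.29). Without CBLM462 it was 8.53. More members had enough counts to test in some fits, with 19 of 23 called without CBLM462 and 19 of 24 without any 1 of the cortex libraries. Calls of *Slc4a5* (6.54), *Cldn2* (5.76) and *Otx2* (5.74, and 7.48 without CTX462) belong to the same list. Over all genes 9.8% were called higher in cerebellum and 24.7% in either direction. Ependymal genes gave 3 and 0 calls of 13, or 23.1% (5 in cerebellum under the names of the RPKM table). Those of meninges and blood gave 3 and 0 of 19, or 15.8%. The latter calls in cerebellum were 2 without CBLM445, 7 without CBLM446, 5 without CTX461 and under the names of the RPKM table, and 8 with library totals.

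Striatal genes were higher in cortex in 16 of 19 cases and in cerebellum in 0. Their summed level was 2424, 1863, 852 and 2512 TPM in the cortex libraries and 824, 789.9, 781 and 752 TPM in the cerebellum libraries, so that CTX461 lay close to cerebellum while the other cortex libraries were over 2-fold above it. Without CTX461, 18 of 21 members tested were called, and the counts were the same without CBLM445, CBLM461 or CBLM462. Hippocampal genes gave 5 calls in cerebellum and 8 in cortex of 15 (3 and 8 without CTX445). Those of olfactory bulb, thalamus and brainstem gave 10 and 3 of 16. *Calb1* of the former list and *Calb2*, *Eomes* and *Slc6a5* of the latter are also in lists of cerebellar cells and were higher in cerebellum. The latter counts were 9 and 4 without CBLM461. *Lhx9*, a factor of thalamic and midbrain neurons, had 0.365, 0.239, 5.59 and 0.582 TPM in cerebellum, with log2 fold changes of 4.29 with and 2.24 without that library. The part of neighbouring tissue in the regional differences of other genes was not tested.

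**Figure D4:**
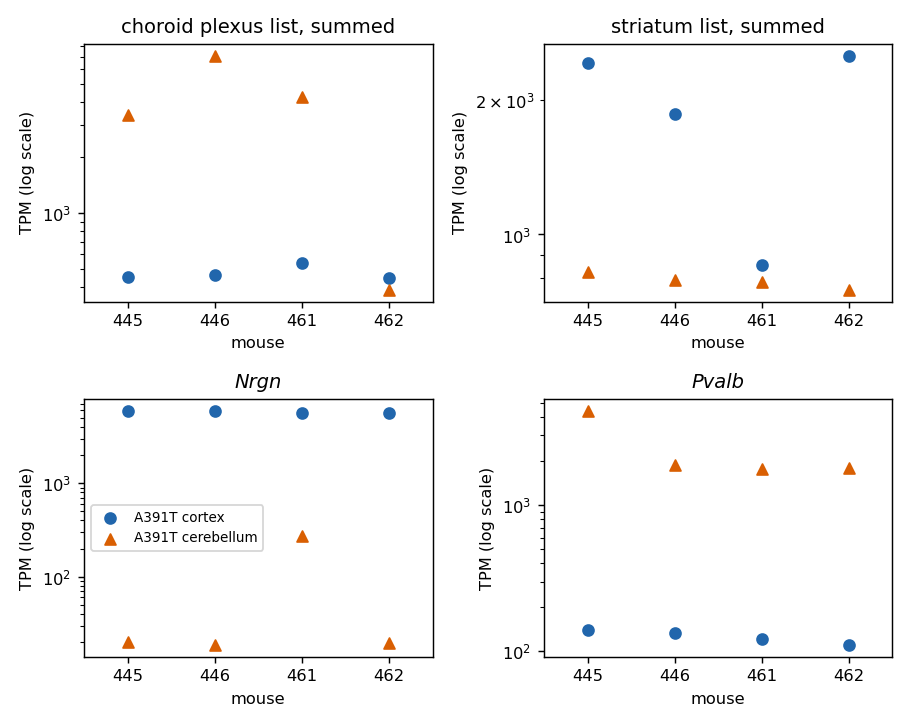
Summed TPM of the choroid plexus and striatum lists and TPM of *Nrgn* and *Pvalb* by mouse, with blue circles for A391T cortex and orange triangles for A391T cerebellum, 1 symbol per library, on log scales. CBLM462 lacks the choroid plexus signal of the other cerebellum libraries, CTX461 lacks the striatal signal of the other cortex libraries, CBLM461 has more *Nrgn* and CBLM445 more *Pvalb* than the others.

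Immediate early genes, which neuronal activity induces, were higher in cortex in 12 of 20 cases and in cerebellum in 0, with a median of -1.82. *Arc*, a regulator of AMPA receptor trafficking, had 504, 451, 620.2 and 512 TPM in cortex and 23.3, 30.2, 42.9 and 42.7 TPM in cerebellum, a log2 fold change of -4.02 (standard error 0.19). *Egr1* (-3.14), *Junb* (-2.94), *Fosb* (-3.38) and *Npas4* (-2.43) were also higher in cortex. *Fos* was not: it had 78.3, 59.1, 122 and 108 TPM in cortex and 62.8, 61.1, 121 and 164 TPM in cerebellum, with overlapping libraries and a log2 fold change of 0.04 (standard error 0.32). *Ier2* (0.85), *Jun* (0.39) and *Dusp1* (0.28) were not called either, though *Ier2* was at 1.13 under the names of the RPKM table. Of 14 glucocorticoid-responsive genes, 2 were higher in cortex and 0 in cerebellum, a share of 14.3% that was near the 14.9% of all genes called higher in cortex. They were the cochaperone *Fkbp5* at -1.54 and the zinc finger factor *Zbtb16* at -2.57, and 3 members were called higher in cortex without CBLM461.

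Circadian clock genes were called 4 times in cerebellum and 4 times in cortex of 20, or 40.0% against 24.7% over all genes. The repressor *Cry1* (1.74) was higher in cerebellum, and *Npas2*, which can stand in for *Clock* in the forebrain, had 42.0, 42.9, 40.3 and 43.2 TPM in cortex and 2.01, 3.20, 3.58 and 3.74 TPM in cerebellum, a log2 fold change of -3.87 (standard error 0.14). Without CBLM445 the counts were 3 and 2, without CTX461 4 and 2, and with library totals 4 and 2. Of 70 respiratory chain and ATP synthase genes, 66 were not called, and 29 of these passed the adjusted p under 0.05 but not the 2-fold limit. The 3 calls in cerebellum became 1 with the replicate block and without either CBLM445 or CTX445, and 2 without CTX446 or under the names of the RPKM table. *Cox6a2*, a muscle-type subunit of cytochrome oxidase that interneurons also express, differed by -5.09 and by -5.76 without CBLM461, and *Cox7a1*, another muscle-type subunit, by 2.03. *Cox7c* (1.01) and *Atp5l* (1.20) were called with all libraries but not without CBLM445 (0.69 and 0.94) and not with the replicate block, where the adjusted p of *Atp5l* was 0.0866 by edgeR's quasi-likelihood test. *Atp5l* was also not called without any 1 of CTX445, CTX462 and CBLM461, or under the names of the RPKM table (0.87), and *Cox7c* not without CTX445 or CTX446. The summed level of the respiratory chain list was 28212, 27691, 27306 and 28833 TPM in the cortex libraries and 42093, 33466, 33676 and 32650.0 TPM in the cerebellum libraries, without overlap and highest in CBLM445. Among 47 chromatin and DNA repair genes, 5 were higher in cerebellum and 7 in cortex, a share of 25.5% that was near the 24.7% called over all genes. *Chd7*, a chromatin remodeller of granule cells, had 5.89, 6.42, 6.13 and 6.19 TPM in cortex and 98.0, 106, 94.1 and 107 TPM in cerebellum, a log2 fold change of 3.94 (standard error 0.07), and its relative *Chd5* was higher in cortex (-2.64).

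The most abundant called genes were not all cell-type markers. In cerebellum they were *Itm2b*, a membrane protein of many tissues (1384 ± 14.5 to 3312 ± 252 TPM, SD, n = 4), with *Ttr*, *Aldoc*, *Pvalb* and *S100b*. In cortex they were *Nrgn*, the peptide-processing enzyme *Cpe* (-1.11), the protease inhibitor *Cst3* (-1.39), the Camk2 inhibitor *Camk2n1* (-2.99) and *Aplp1*, a relative of the amyloid precursor (-1.01). *Aplp1* lay at the 2-fold limit and was not called without CTX462 (-0.98) or without CBLM446 (-0.96) or CBLM462 (-0.99), nor with library totals (-0.88) or in the model of all 16 libraries. *Cpe* was not called with library totals (-0.98). Genes at a like level in both regions included the clathrin light chain *Clta* (441 ± 18.5 and 468 ± 76.9 TPM) and *Arl6ip5*, a membrane protein of the endoplasmic reticulum (363 ± 13.4 and 389.8 ± 20.1 TPM). Their log2 fold changes were -0.00 (standard error 0.13) and 0.00 (standard error 0.08).

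The same comparison in the 4 wild-type mice, which shares no library with that of the A391T mice, called 3955 of 16040 genes (24.7%). Of 15827 genes tested in both genotypes, 3865 were called in A391T and 3853 in wild-type mice, and 3412 were called in both in the same direction, 88.3% of the A391T calls and 88.6% of the wild-type calls. In opposite directions 0 were called. The genes are not independent replicates of each other, and over them the log2 fold changes of the genotypes had a Pearson r of 0.980. Of the 453 genes called in A391T mice alone, 50 had an unadjusted interaction p under 0.05 and 2 had the opposite sign in wild-type mice. In the test of the region by genotype interaction over all 16 libraries, 0 of 16589 genes had an adjusted p under 0.05 by edgeR's quasi-likelihood test, and the smallest was 0.367. At an unadjusted p under 0.05 there were 805 (4.85%), and DESeq2 called 1 gene. The 805 became 1578 of 16589 with the names that the RPKM table gives, and ran from 478 without wild-type CBLM480 to 1352 without CBLM462 when single libraries were left out, with 0 at an adjusted p under 0.05 in each of these fits. Which source names the libraries rightly was not settled, so that the interaction is given for both. The genes named by the lowest unadjusted p in each direction were *Arc*, *Klf10*, *Bdnf* and *Fosl2*. *Arc* had a log2 fold change of -4.02 in A391T and -2.89 in wild-type mice, and *Klf10*, a Krüppel-like factor, -2.19 and -1.20. The neurotrophin *Bdnf* had -0.75 and -1.39, and *Fosl2*, a partner of *Jun*, -1.75 and -2.30. The interaction of each had an adjusted p of 0.769 (*Arc*), 0.367 (*Klf10*), 0.769 (*Bdnf*) and 0.769 (*Fosl2*) by edgeR's quasi-likelihood test, so that 0 of 4 passed. *Gabra6* had a log2 fold change of 10.74 in A391T and 10.55 in wild-type mice, and *Slc39a8* -0.02 and 0.20.

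**Figure D5:**
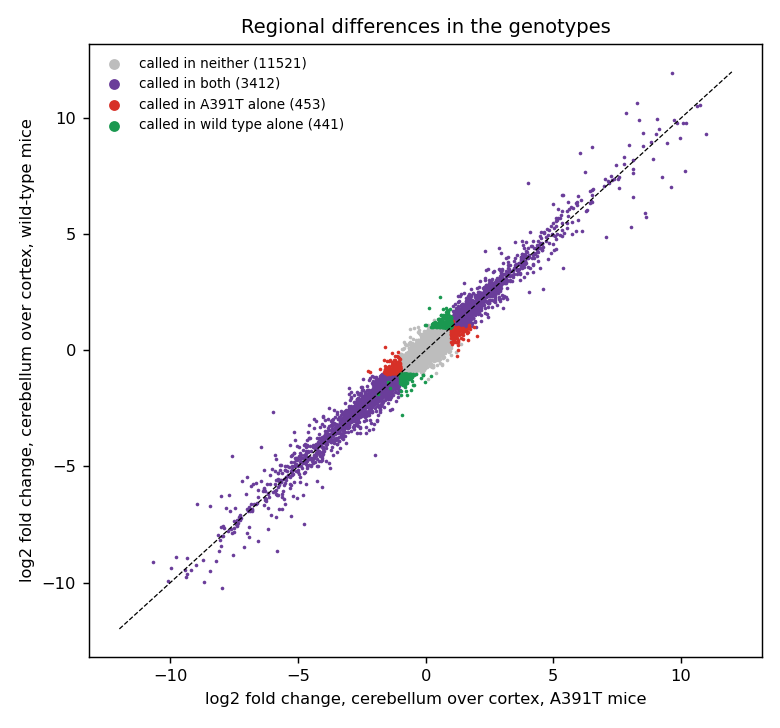
Log2 fold changes of cerebellum over cortex in A391T mice (horizontal axis) and wild-type mice (vertical axis) for the 15827 genes tested in both, with genes called in both genotypes in purple, in A391T alone in red, in wild type alone in green and in neither in grey. The dashed line marks equal values, around which the points lie (Pearson r of 0.980 across genes).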

How the data were processed

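PolyA-selected directional libraries of cortex and cerebellum were sequenced by the authors, mapped with STAR to mm9 and counted per Ensembl gene with HTSeq, as the submitters' processing notes and the study's methods name them. The deposited counts are whole numbers per gene and library, counted without regard to strand and not normalized, so overlapping genes on either strand share or lose reads. Entries outside genes (from 10.2% to 12.3% of an A391T file), ambiguous ones (2.21% to 2.75%) and those without a unique alignment (8.41% to 10.3%) stayed out. The authors also deposited RPKM values with a gene length per gene. Each RPKM column was proportional to the counts of 1 library divided by these lengths, and 8 of 16 columns carried the name of another library. These values were used for no test. TPM was computed here from the counts and these lengths.

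The test was that of edgeR 4.0.16 (R 4.3.3, filterByExpr, TMM, quasi-likelihood test, Benjamini-Hochberg adjustment over all genes tested), without a block, since the study's methods name none. In a simulation from the means of these libraries it called 103 of 107 genes changed by a log2 of 1.5. It called 92 of 93 changed by 2.5, with 3 false calls among 15840 genes. The simulation gave every gene the same spread between libraries and changed few genes, with directions drawn at random. It therefore does not cover a library like CBLM445 or calls as many and uneven as those of the data. Alternatives were DESeq2 1.42.0, other scalings and filters, a test against a 2-fold change, all 16 libraries in one model, library names of the RPKM table, single libraries left out, and mouse as a replicate block. The labels give both regions of a mouse the same number, which was taken as the same animal. Deviations of the 2 regions of a mouse from their group means had correlations of -0.107, 0.131, -0.070 and -0.189 across genes, against -0.179 to 0.181 between different mice.

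The comparison, the 43 gene lists (1254 genes tested) and the rule for named genes were chosen with earlier results of these data known. The rule takes *Slc39a8*; the 12 called genes with the largest change in each direction at 5 TPM or more; from each list the 4 called members with the largest change in each direction, those against the list's direction and all members of lists with at most 20 tested; the 5 most abundant called genes in each direction; the 2 genes with the lowest interaction p in each direction; up to 6 genes per direction with at most 3 counts in the other region; and 4 abundant uncalled genes. Some genes that the rule names are not reported here. Ratios at 0 counts use a floor of 3 counts over the 4 libraries of a region, and floors and intervals cover counting error only. The labels give separate mice as replicates. Promoters are RefSeq windows of GRCm38.p6, matched by symbol for 20 of 28 granule cell and 23 of 34 Purkinje cell genes. Python 3.11.15 with pandas 2.3.3, numpy 2.4.6, scipy 1.17.1 and matplotlib 3.10.9 was used. A list of 4 sex-linked genes was part of the lists for a check of the libraries and gave 0 called genes.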

Additional observations from a re-analysis of the deposited data

Results flagged for a closer look

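In 44 of 472 groups of 4 libraries, 1 library stood apart from the other 3 by more of the group's range than Dixon's 95% critical value for 4 samples allows. The groups were the 194 genes and 42 gene lists of the text in each region. Chance gives about 1 in 20 where the groups are fixed beforehand. Some genes here were named because 1 library stood apart, and list sums share genes with them. The 44 groups are therefore not compared with that rate. The libraries that stood apart were unevenly spread, with 20 in CBLM445, 12 in CBLM461 and at most 4 in each of the other 6 libraries. Values are TPM, with the range of the other 3 libraries of the region in parentheses.

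CBLM445 lay above the other 3 in *Calb2* 1606 (1328 to 1356), *Clta* 584 (424 to 434), *Col18a1* 68.5 (54.5 to 56.6), *Dao* 247 (141 to 156), *Gad1* 376 (302 to 310.0), *Lhx5* 44.0 (36.6 to 37.4), *Mfge8* 202 (157 to 162), *Ovol2* 0.0591 (0 to 0), *Pvalb* 4418 (1769.9 to 1871), *S100b* 1942 (1557 to 1599), *Sparc* 1339 (1004 to 1059) and *Wnt3* 43.6 (33.1 to 34.6). It lay below them in *Gli1* 16.3 (22.3 to 22.8), *Jun* 60.7 (71.3 to 73.3), *Mt2* 662 (1222 to 1295), *Slc39a10* 19.1 (45.5 to 48.7) and *Unc13c* 57.2 (104 to 109.9). Of the lists, it was highest for the sum over the list of inhibitory interneurons of the cortex, 8389 (5577 to 5686) and the sum over the list of respiratory chain and ATP synthase, 42093 (32650.0 to 33676) and lowest for the sum over the list of glucocorticoid-responsive genes, 1141 (1741 to 1798). The part of library quality in these values was not tested.

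CBLM461 lay above the other 3 in *Doc2a* 3.61 (0.338 to 0.879), *Gabrg3* 1.06 (0.448 to 0.452), *Kcnv1* 0.773 (0.111 to 0.216), *Lhx9* 5.59 (0.239 to 0.582), *Nrgn* 273 (18.6 to 19.8), *Pdyn* 2.47 (0.291 to 0.399), *Slc17a6* 70.7 (14.5 to 22.5), *Slit1* 3.19 (0.688 to 0.955), *Stx1a* 9.58 (4.15 to 4.61), *Syt5* 22.3 (12.0 to 12.9), *Tac1* 23.8 (1.46 to 2.37) and *Vip* 5.82 (0.0985 to 0.426). Of these, *Lhx9* and *Slc17a6* were called higher in cerebellum and the others higher in cortex. CBLM462 was apart in *Crym* 1.29 (0.317 to 0.396) and CBLM446 in *Emx1* 0.343 (0.114 to 0.149), both called higher in cortex.

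CTX461 lay below the others in *Cacna2d2* 19.1 (25.8 to 27.0), *Grm4* 17.7 (25.3 to 26.6) and *Rgs8* 66.0 (68.0 to 68.3) and above them in *Gli1* 3.57 (2.83 to 2.93). CTX445 lay below in *Grin2c* 44.3 (50.3 to 51.1) and *Homer3* 6.398 (7.26 to 7.42) and above for the sum over the list of classical and type II cadherins, 411 (400.5 to 402). CTX446 was above in *Epha8* 8.40 (6.68 to 6.97), and CTX462 in *Nos1* 24.01 (18.6 to 19.4) and the sum over the list of AMPA, kainate, NMDA and delta receptor subunits, 3974 (3802 to 3824).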

How the results depend on the processing

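The number of called genes stayed between 2854 and 5009 under every alternative that kept a limit on the fold change. It was 3962 with DESeq2, 3955 with RLE size factors, 4027 with library totals, 3932 with the replicate block, 4224 with all 16 libraries in one model, 3306 with a mean of at least 1 CPM, 5009 without a filter on low counts (25874 genes tested) and 2854 in the test against a 2-fold change. With single libraries left out it ran from 3996 to 4133, under the names of the RPKM table it was 4073 (4070 with the replicate block), with only the 2 mice named alike in both sources (CTX445, CTX446, CBLM445 and CBLM446) it was 4099, and without CTX445 and CBLM445, an alternative chosen after the data were seen, it was 3956. With the adjusted p alone, without the fold change, 10056 genes passed, 5051 higher in cerebellum and 5005 higher in cortex. The interaction count of 0 became 1 with DESeq2, where the cause was not tested, and was 0 under the other alternatives run.

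Of the 500 named genes, 399 were called and 342 were called under every alternative that tested them, and 0 changed direction. Calls were lost most often in the test against a 2-fold change (56 genes), with only those 2 mice (19) and without both CTX445 and CBLM445 (19). The paired fit, with mouse as a replicate block, ended 6 calls among the named genes, those of *Atp5l*, *Cox7c* and *Slc17a6* among them, added 1, of *Cdh24*, and changed no other call of a named gene. Genes at 0 in a region have no upper bound to their ratio at this depth, and ratios with 1 to 3 counts in the lower region carry wide intervals.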

Other observations

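A few more genes, some of them members of the lists, separated single libraries, and they were picked out after their values were seen. In CBLM461, *Cbln2*, a relative of the cerebellin *Cbln1* that cortical and thalamic neurons make, had 11.0 TPM against 0.389 to 0.505 TPM in the other cerebellum libraries. *Tcf7l2*, a Wnt effector that marks thalamic neurons in the adult brain, had 20.03 TPM against 2.14 to 2.63 TPM, *Tfap2d*, a midbrain factor, 5.93 TPM against at most 0.0770 TPM, and the peptide *Grp* 6.59 TPM against 0.355 to 0.768 TPM. *Sst*, somatostatin, had 143 TPM against 20.5 to 26.6 TPM.

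In CBLM462, *Sostdc1*, a secreted antagonist of Bmp and Wnt signals that the choroid plexus makes, had 0 TPM against 11.3 to 19.7 TPM in the other cerebellum libraries, and *Folr1*, the folate receptor of the choroid plexus, had 0.532 TPM against 13.0 to 24.2 TPM. In CTX461 the receptors *Adora2a* and *Gpr6*, both of striatal projection neurons, had 12.1 TPM against 60.0 to 85.7 TPM and 5.44 TPM against 23.6 to 30.7 TPM in the other cortex libraries. The part of dissection in these values was not tested.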
